A study of Rattus norvegicus with 12 samples.

Results

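Liver sinusoidal endothelial cells line the smallest blood vessels of the liver. They have open pores, lack a continuous basement membrane, and clear waste proteins, immune complexes and hyaluronan from blood with scavenger receptors. A set of 10 transcripts that mark these cells was followed across rat livers on a high-fat diet, with and without didymin, a citrus flavonoid glycoside. The genes were matched by name. Of the 10 listed, 9 were found among the 16558 genes of the joined count tables and Pecam1 was not analysed here. All 9 passed the filter on low counts and entered the test of 12355 genes.

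Arm G and arm D were the didymin groups, in which rats on a high-fat diet also received didymin, 1 arm at a low dose and 1 at a high dose. No label pairs a letter with a dose. The model group had a high-fat diet for 8 weeks and no didymin, and the normal group was given saline. All animals were Sprague Dawley rats, an outbred stock, and each group had 3 libraries of whole liver RNA. The labels give no sex, age or didymin treatment time. They also do not say which animal each library came from, so the spread behind each p-value is that between libraries and may be technical.

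Total counts ran from 12469914 to 15521648 per library. Counts of the 9 markers lay between 60 and 1904 per library, and none was 0. Mitochondrial genes took 61.0% of counts in one arm G library, G.3, and 44.1% in one model library, M.6. Elsewhere they took 3.85% to 18.8%. Both libraries also stood apart in hepatocyte markers, with a mean of 11.2 log2 CPM in G.3 and 11.6 in M.6, against 12.5 to 12.9 elsewhere. Levels are given as CPM, counts of a gene per 1000000 of the scaled library size, which compare a gene between libraries. They are not per length and do not rank genes against each other. In whole tissue, fewer cells of a type and less RNA per cell cannot be told apart.

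The summed marker level was highest in arm D and lowest in the model. Over the 9 genes it was 346, 266 and 395 CPM in the arm G libraries G.1, G.3 and G.4. It was 437, 407 and 470 CPM in the arm D libraries D.1, D.4 and D.7, above every other library. Model livers had 289.8 (M.5), 229.9 (M.6) and 311 CPM (M2.1), all below normal livers with 331 (N.1), 386 (N.2) and 344 CPM (N.3). In 6 of the 9 markers the highest of all 12 libraries was an arm D library, as in 19.4% of all genes tested. In none of the 6 pairwise comparisons did a marker reach an adjusted p under 0.05 by the quasi-likelihood test of edgeR, and neither did any other gene (0% of those tested). DESeq2 called 5 to 84 genes a comparison but no marker.

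**Figure D1:**
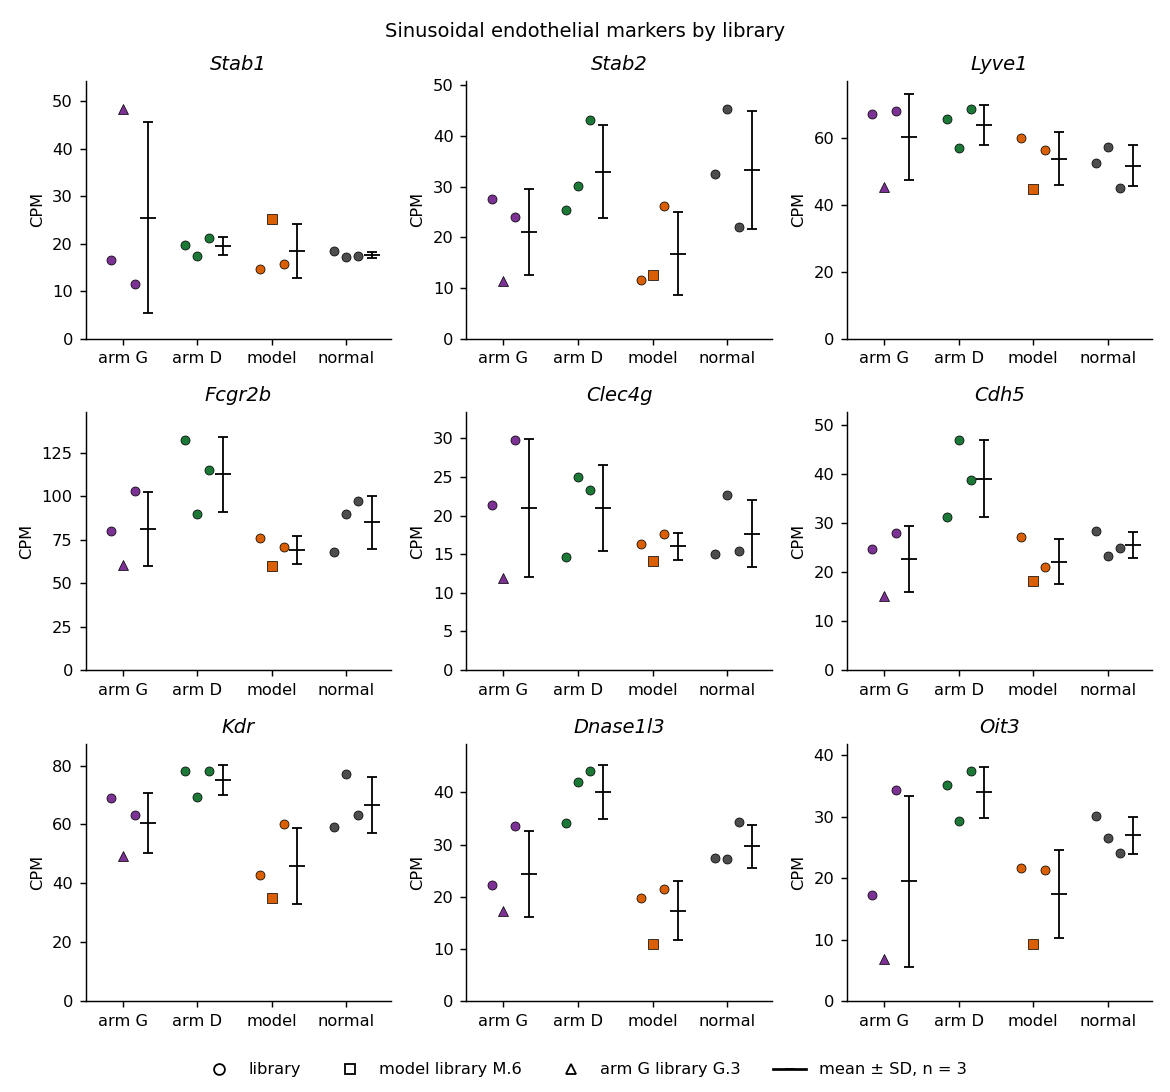
CPM (vertical axes from 0) of each marker in arm G, arm D, model and normal libraries, one point per library, with the mean ± SD of 3 libraries beside them. A square marks M.6 and a triangle G.3, which are the high points for Stab1 and lie among the low points of the other markers, such as Oit3 with 9.27 CPM in M.6 and 6.81 CPM in G.3.

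The first 5 markers are scavenger and clearance receptors. Stab2 encodes stabilin-2, the main endocytic receptor for hyaluronan on these cells. It had 27.5, 11.5 and 24.1 CPM in arm G (G.1, G.3 and G.4), 25.4, 30.2 and 43.1 CPM in arm D (D.1, D.4 and D.7), 11.6, 12.6 and 26.2 CPM in the model (M.5, M.6 and M2.1) and 32.5, 45.4 and 22.0 CPM in normal livers (N.1, N.2 and N.3). M.5, M.6 and G.3 were the low libraries, and M2.1 overlapped with both arm D and normal livers. The log2 fold change was −0.98 ± 0.42 (SE) for the model against normal and 0.97 ± 0.42 for arm D against the model, with unadjusted p of 0.0348 and 0.0375 in edgeR and adjusted p of 0.866 and 0.788.

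Fcgr2b encodes the inhibitory Fc gamma receptor that takes up small immune complexes. It had 80.1, 60.3 and 103 CPM in arm G, 132, 90.1 and 115 CPM in arm D, 76.0, 60.1 and 70.7 CPM in the model and 68.1, 89.7 and 97.3 CPM in normal livers. All arm D libraries lay above all model libraries. The log2 fold change of arm D against the model was 0.71 ± 0.26, with an adjusted p of 0.785 in edgeR. Fcgr2b has close relatives among the Fc receptor genes, and reads shared with them could be split in counting, so its level is uncertain.

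Lyve1, a hyaluronan receptor also used as a lymphatic vessel marker, had 67.1, 45.3 and 68.0 CPM in arm G, 65.6, 57.0 and 68.6 CPM in arm D, 59.9, 44.7 and 56.4 CPM in the model and 52.4, 57.3 and 45.0 CPM in normal livers. All groups overlapped, and its log2 fold changes ran from −0.08 ± 0.23 (arm G against arm D) to 0.30 ± 0.23 (arm D against normal).

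Clec4g encodes LSECtin, a C-type lectin of sinusoidal endothelium. Its values were 21.3, 11.9 and 29.8 CPM in arm G, 14.6, 25.0 and 23.4 CPM in arm D, 16.3, 14.1 and 17.6 CPM in the model and 15.0, 22.6 and 15.4 CPM in normal livers. The arm G libraries spanned both the lowest and the highest value of the series. The 2 arms had nearly the same mean, 21.0 ± 8.95 CPM in arm G and 21.0 ± 5.57 CPM in arm D (SD, n = 3), and the model had 16.0 ± 1.74 CPM.

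Stab1 encodes stabilin-1, a scavenger receptor of the same family as stabilin-2 that some macrophages also carry. Its values were 16.5, 48.4 and 11.4 CPM in arm G, 19.8, 17.4 and 21.1 CPM in arm D, 14.8, 25.1 and 15.8 CPM in the model and 18.4, 17.2 and 17.4 CPM in normal livers. The 2 high libraries were G.3 and M.6, and for each of the other 8 markers the lowest library was one or other of them. The ratio of Stab1 to Stab2 counts was 4.23 in G.3 and 1.99 in M.6. It lay between 0.378 and 1.27 everywhere else. Arm G against the model gave a log2 fold change of 0.45 ± 0.43, and −0.39 without G.3.

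An adhesion protein and a growth factor receptor come next. Cdh5 encodes VE-cadherin, which holds endothelial cells together. It had 24.7, 15.0 and 27.8 CPM in arm G, 31.2, 46.9 and 38.7 CPM in arm D, 27.1, 18.2 and 20.9 CPM in the model and 28.4, 23.1 and 24.9 CPM in normal livers. Its arm D libraries lay above every library of the other 3 groups. The log2 fold change was 0.82 ± 0.27 for arm D against the model, 0.61 ± 0.27 for arm D against normal and −0.79 ± 0.27 for arm G against arm D, with unadjusted p of 0.0110, 0.0439 and 0.0137 and adjusted p of 0.783, 0.762 and 0.999 in edgeR. With limma-voom and sample quality weights the comparison of arm D with normal livers passed, at 0.72 and an adjusted p of 0.0218, where 941 genes passed in all.

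Kdr encodes the vascular endothelial growth factor receptor 2, the main signalling receptor for VEGF-A. It had 69.0, 49.2 and 63.3 CPM in arm G, 78.1, 69.4 and 78.1 CPM in arm D, 42.7, 35.0 and 60.2 CPM in the model and 59.1, 77.2 and 63.3 CPM in normal livers. Arm D lay above the model without overlap, at a log2 fold change of 0.71 ± 0.25 (adjusted p of 0.783 in edgeR). Arm G lay below arm D by a narrow gap, 69.0 against 69.4 CPM at the nearest libraries. The model against normal had −0.53 ± 0.25, with M2.1 among the normal libraries.

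The last 2 markers are secreted. Dnase1l3 encodes a secreted DNase that digests chromatin in blood. It had 22.3, 17.4 and 33.5 CPM in arm G, 34.2, 42.0 and 44.1 CPM in arm D, 19.7, 10.9 and 21.5 CPM in the model and 27.3, 27.2 and 34.4 CPM in normal livers. Every model library lay below every normal library and below every arm D library. On the log2 scale the fold change was 1.21 ± 0.31 for arm D against the model, −0.72 ± 0.30 for arm G against arm D and −0.77 ± 0.30 for the model against normal. The unadjusted p was 0.00189, 0.0355 and 0.0261 and the adjusted p 0.783, 0.999 and 0.866 in edgeR. In the authors' deposited table of arm D and the model it is listed with an adjusted p of 0.189.

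Oit3, also named Lzp, encodes a secreted zona pellucida domain protein of liver. It had 17.3, 6.81 and 34.4 CPM in arm G, 35.1, 29.4 and 37.4 CPM in arm D, 21.7, 9.27 and 21.3 CPM in the model and 30.1, 26.6 and 24.2 CPM in normal livers. As with Dnase1l3, no model library reached the normal or the arm D range. In log2 units the fold change was 0.96 ± 0.47 for arm D against the model and −0.63 ± 0.47 for the model against normal, with adjusted p of 0.801 and 0.866 in edgeR. Its arm G libraries ran from the lowest value of the series to a value within the arm D range.

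G.3 was the highest of all libraries for Stab1 and the lowest for Oit3. The stretches before both genes are shown for that contrast, and Kdr beside them as a marker with no match to any motif searched. These are the RefSeq stretches just before each gene in the rat build GRCr8, cut where the annotated gene begins. Capitals mark AGGAAG or CGGAAG (forms of the motif bound by ETS factors, a family that endothelial genes use widely) and TGCTGA (part of the motif bound by MAF factors), on either strand.
Stab1: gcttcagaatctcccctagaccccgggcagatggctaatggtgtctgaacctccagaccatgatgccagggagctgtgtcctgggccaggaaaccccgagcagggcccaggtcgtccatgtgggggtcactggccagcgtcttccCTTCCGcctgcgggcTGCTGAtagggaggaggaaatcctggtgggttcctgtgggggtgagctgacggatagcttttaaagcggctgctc
Oit3: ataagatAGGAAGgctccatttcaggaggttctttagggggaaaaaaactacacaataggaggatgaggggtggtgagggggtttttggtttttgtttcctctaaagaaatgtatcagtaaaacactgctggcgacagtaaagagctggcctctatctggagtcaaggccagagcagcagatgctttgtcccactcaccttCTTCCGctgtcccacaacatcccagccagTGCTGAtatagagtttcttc
Kdr: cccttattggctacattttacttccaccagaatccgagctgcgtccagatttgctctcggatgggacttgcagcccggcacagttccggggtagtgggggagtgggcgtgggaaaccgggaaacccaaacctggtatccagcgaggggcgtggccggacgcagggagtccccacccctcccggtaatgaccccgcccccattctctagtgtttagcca
The Stab1 stretch is chr16:6367375-6367609 on the minus strand, the Oit3 stretch is chr20:27953684-27953933 on the minus strand and the Kdr stretch is chr14:32571813-32572030 on the plus strand. Promoters were present for 7 of the 10 markers, and the 250 bases before each start were searched. AGGAAG was in 4 of 7 (Lyve1, Stab2, Clec4g and Oit3) and in 29.5% of all 33469 promoters. CGGAAG was in Stab1 and Oit3 and in 13.9% of all promoters, and TGCTGA was in the same pair and in 15.1%. The GATA motif AGATAA was in 0 of 7 and in 10.3% of all promoters, and the SOX motif ACAATG was in Clec4g and in 11.1%. Stab1 and Oit3, at opposite ends in G.3, thus held the same CGGAAG and TGCTGA letters, and a match describes the letters only.

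Arm D was set against the model to ask what didymin was followed by on the high-fat diet. Fold changes were positive in 9 of 9 markers. Their median was 0.71 on the log2 scale, against −0.04 over all 12355 genes, of which 46.7% were positive. In 5 of 9 (Fcgr2b, Cdh5, Kdr, Dnase1l3 and Oit3) every arm D library lay above every model library, as in 5.93% of all genes tested. At an unadjusted p under 0.05 in edgeR there were 5 markers, Stab2 in place of Oit3 among them, against 3.04% of all genes in that direction. That count was 2 without M.6 and 3 without D.4, and between 4 and 6 without any other single library. All genes at that p, both directions together, numbered 406 without M.6, 318 without D.4 and 473 to 1802 without any other single library. With all libraries they were 376 higher and 400 lower. Without both M.6 and G.3 the markers' median was 0.64, with Dnase1l3 at 0.99 and Cdh5 at 0.73.

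Markers of Kupffer cells, the liver's own macrophages, moved with this comparison. All 12 Kupffer cell markers were measured, and their summed level was 626 to 1931 CPM in arm D and 309 to 700.2 CPM in the model, lowest in D.1 within arm D. Their median log2 fold change was 1.44, with 12 of 12 positive. At an unadjusted p under 0.05 in edgeR there were 11 of 12, against 3.04% of all genes in that direction. In 3 of 12 every arm D library lay above every model library, against 5.93% of all genes. Fcgr2b, Stab1, Lyve1 and Dnase1l3 can also be found on or in macrophages. Hepatocyte markers had a median of 0.33 in the same comparison, stellate cell markers 0.36 and leukocyte markers 0.35. Red blood cell genes had −0.06 and cholangiocyte (bile duct) markers −0.23. The part of these lists in the result was not tested.

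**Figure D2:**
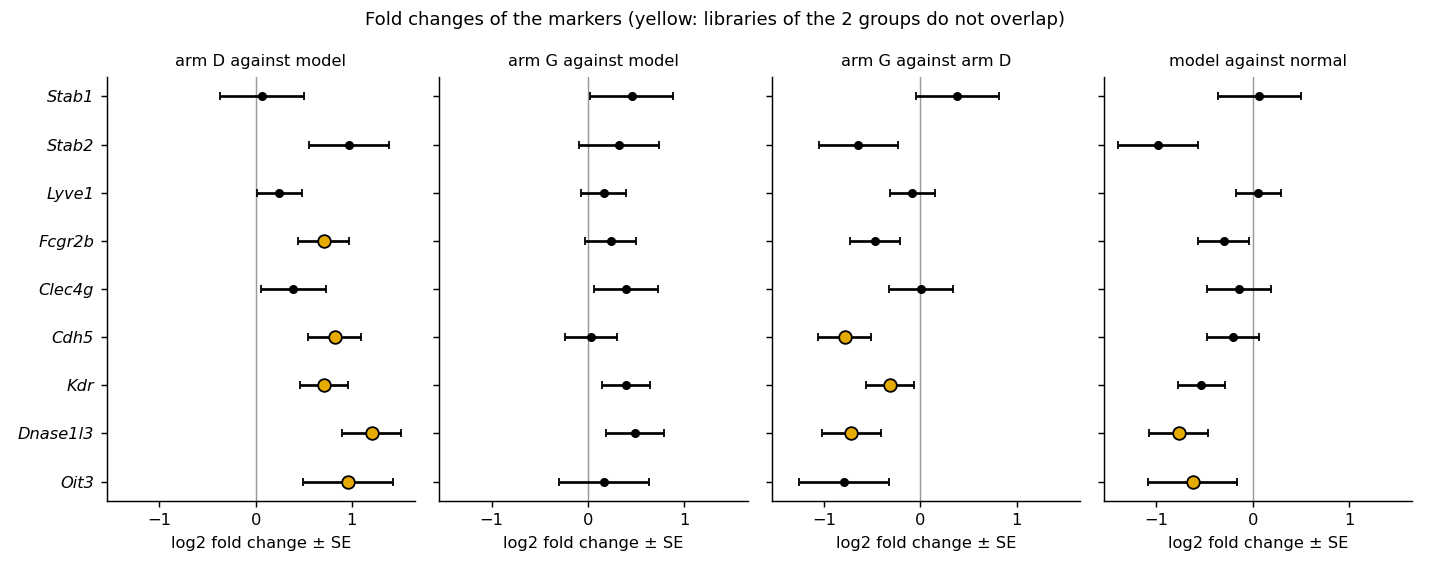
Log2 fold change (horizontal axes, ± SE from edgeR) of each marker for arm D against the model, arm G against the model, arm G against arm D and the model against normal, with yellow points where the libraries of the 2 groups do not overlap. Arm D against the model has 5 yellow points, Dnase1l3 farthest right at 1.21, and arm G against the model has 0.

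The model was set against normal livers to ask what the high-fat diet was followed by. Of the 9 markers 7 were negative, with a median log2 fold change of −0.30, against 0.03 over all genes, of which 52.6% were positive. Dnase1l3 and Oit3 lay below the normal range in all 3 model libraries, as did 5.29% of all genes tested. Stab2 and Dnase1l3 had an unadjusted p under 0.05, against 1.9% of all genes in that direction. Without M.6 this count was 0, without M.5, N.1, N.2 or N.3 it was 1, and without G.3 or M2.1 it was 3. The number of all genes at that p, both directions together, also changed. It was 353 without M.6, 285 to 705 without M.5, N.1, N.2 or N.3, 1233 without G.3 and 2561 without M2.1. With all libraries it was 372 higher and 235 lower. The markers' median was −0.21 without both M.6 and G.3. Hepatocyte markers had a median of −0.54 (11 of 12 negative) and Kupffer cell markers of −0.58 (12 of 12 negative) in the same comparison. Stellate cell markers had −0.13 (8 of 11 negative). Leukocyte markers went the other way, at 0.55 (8 of 8 positive), as did red blood cell genes at 1.118 (4 of 4 positive). Cholangiocyte markers had 0.27 (3 of 4 positive). The part of these lists in the result was not tested.

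Arm G was set against the same model libraries. Fold changes were again positive in 9 of 9, as in 50% of all genes, with a median of 0.32. No marker separated the groups, against 2.61% of all genes on the higher and 2.09% on the lower side. None had an unadjusted p under 0.05 in edgeR, against 1.2% of all genes on the higher and 1.13% on the lower side, but 2 did without G.3 and 1 without M2.1. Of all genes, 921 did without G.3 and 814 without M2.1, both directions together. With all libraries 148 did on the higher and 139 on the lower side. The 2 largest folds were Dnase1l3 at 0.49 ± 0.30 and Stab1 at 0.45 ± 0.43, and Stab1 was at −0.39 without G.3. Cdh5 was at 0.03 ± 0.27, and both Cdh5 and Oit3 changed sign on leaving out some single libraries. The median was 0.05 without G.4 and 0.54 without G.3. Kupffer cell markers were positive in 12 of 12 in this comparison, with a median of 0.59, and summed to 409 to 931 CPM in arm G and 309 to 700.2 CPM in the model. Leukocyte markers were positive in 8 of 8 tested, with a median of 0.79, and summed to 34.4 to 108 CPM in arm G and 22.0 to 64.2 CPM in the model. Hepatocyte markers had a median of 0.09, stellate cell markers 0.02 and red blood cell genes 0.13. Their part in the result was not tested. Because both arms were compared with one set of model libraries, their positive signs are not independent of each other.

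Arm G and arm D share no libraries and were compared directly. Of 9 markers 7 were negative, with a median of −0.47 against −0.01 over all genes, of which 49% were positive. Cdh5, Kdr and Dnase1l3 lay lower in all arm G libraries, as did 3.35% of all genes tested. Cdh5 and Dnase1l3 had an unadjusted p under 0.05, against 0.971% of all genes in that direction, and this count was 0 without D.4, 1 without D.7, G.1 or G.3 and 4 without G.4. All genes at that p, both directions together, numbered 157 without D.4, 199 without D.7, 889 without G.1, 187 without G.3 and 911 without G.4. With all libraries they were 303 higher and 120 lower. Kupffer cell markers had a median of −0.78 in this comparison (12 of 12 negative), stellate cell markers of −0.37 (9 of 11) and hepatocyte markers of −0.19 (11 of 12). Leukocyte markers went the other way, at 0.69 (6 of 8 positive), as did red blood cell genes at 0.28 (4 of 4 positive). The summed Kupffer level was 409 to 931 CPM in arm G and 626 to 1931 CPM in arm D. Their part in the result was not tested. Against normal livers arm D had a median of 0.30 with 8 of 9 positive, against 48.2% of all genes. Kupffer cell markers had 0.80 there (12 of 12 positive), leukocyte markers 0.86 (7 of 8) and red blood cell genes 1.13 (4 of 4). Stellate cell markers had 0.10 (7 of 11 positive), hepatocyte markers −0.25 (10 of 12 negative) and cholangiocyte markers −0.43 (3 of 4 negative). The part of these lists in the result was not tested. Cdh5 was the 1 marker without overlap, as in 8.58% of all genes, and the 1 with an unadjusted p under 0.05, against 4.22%. That count was 0 without D.4, D.7, G.1, N.1, N.2 or N.3. In these fits 445 to 933 of all genes had such a p, both directions together, against 521 higher and 262 lower with all libraries. Arm G against normal had a median of −0.14 with 3 of 9 positive, against 51.2% of all genes. No marker was without overlap, against 5.51% of all genes on the higher and 5.05% on the lower side. None had an unadjusted p under 0.05 in edgeR, against 4.42% and 2.17% on these sides, and 1 did without G.4. Of all genes, 1227 did without G.4, both directions together, against 546 higher and 268 lower with all libraries. Without both M.6 and G.3 the markers' median was 0.0011.

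Over all 12 libraries, 8 markers varied together and Stab1 did not, and this contrast was smaller without M.6 and G.3. Every one of the 28 pairs among the 8 had a positive Pearson correlation of log2 CPM over the 12 libraries, from 0.479 to 0.861, while all 8 pairs with Stab1 were negative, from −0.731 to −0.308. These are descriptions over libraries that share groups and scaling. In 8 of 9 markers the lowest library was M.6 or G.3, as in 34.1% of all genes tested, and in Stab1 these were the 2 highest, as in 16.5%. Without M.6 and G.3 the correlation of Stab1 with the mean of the other markers was 0.265, against −0.595 with them. Of the other 8, the lowest without these 2 libraries were Lyve1 at 0.348, Clec4g at 0.387 and Stab2 at 0.55. With them Lyve1 had 0.668, Clec4g 0.619 and Stab2 0.768. Dnase1l3 had the highest correlation with the mean of the others, at 0.895, and at 0.788 without these 2 libraries. With group means subtracted Oit3 had the highest, at 0.893, and Dnase1l3 had 0.764. Other gene lists followed the same libraries in part. The mean of the 8 markers correlated at 0.858 with other sinusoidal endothelial genes, 0.804 with Kupffer cell markers and 0.797 with hepatocyte markers. Stellate cell markers had 0.555 with that mean, and cholangiocyte (−0.486), red blood cell (−0.468) and leukocyte (−0.256) lists went the other way. Stab1 had −0.864 with hepatocyte markers. The part of these lists in the pattern was not tested.

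**Figure D3:**
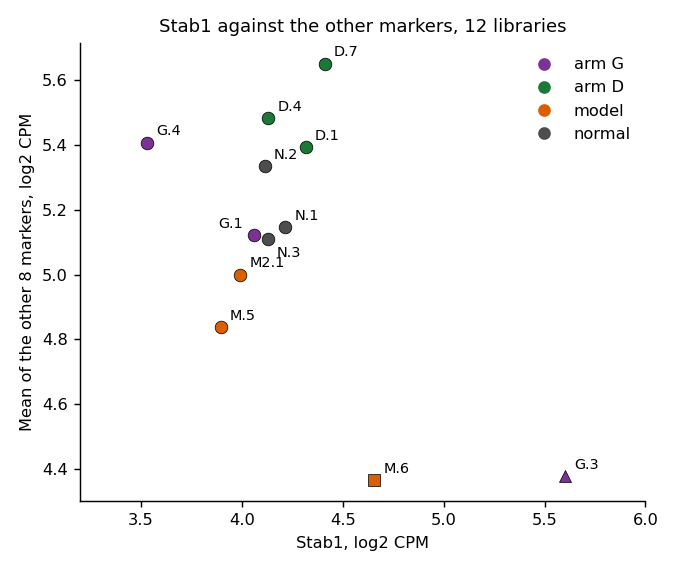
Each point is 1 library, placed by its Stab1 level (horizontal, log2 CPM) and by the mean of the other 8 markers (vertical, log2 CPM), coloured by group. G.3 and M.6 lie apart at the lower right, with means of 4.38 and 4.37, and the arm D libraries lie at the top, from 5.39 to 5.65.

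The genes most like the marker mean were named by a rule, the 10 highest Pearson correlations over 12 libraries. They were Tmem109, Pfn1, Ccnd3, Tapbp, Nudt21, Lacc1, Slc48a1, Mtch1, Ctsd and Sectm1a, with r from 0.914 to 0.941. With group means subtracted they were Slc17a5, Fbp1, Bst2, Rab10, Runx1, Atp2c1, LOC680579, Sucla2, Prelid3b and Urb2, from 0.957 to 0.979. No gene is in both sets, and none belongs to the endothelial lists. Ctsd encodes the lysosomal protease cathepsin D and Fbp1 a gluconeogenic enzyme of hepatocytes.

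A wider list of 69 other endothelial genes, in 5 groups, was followed beside the markers, and 63 entered the test. None passed an adjusted p of 0.05 in any comparison. For arm D against the model 46 of 63 had a positive log2 fold change and the median was 0.32. In 12 of 63 the arm D libraries all lay above the model, against 5.93% of all genes, and 11 had an unadjusted p under 0.05, against 3.04%. The model against normal had 34 of 63 negative with a median of −0.04, nearer to all genes than the −0.30 of the markers, and 7 of 63 lay below normal without overlap, against 5.29% of all genes. Arm G against the model had 43 positive with a median of 0.13, and arm G against arm D had 42 negative with a median of −0.19. In 12 of 63 all arm G libraries lay below arm D, against 3.35% of all genes.

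Other sinusoidal genes had a median of 0.41 for arm D against the model, with 8 of 11 positive. Mrc1, the mannose receptor, which macrophages also carry, was at 71.8 ± 9.19 CPM in arm D and 52.1 ± 1.45 CPM in the model (SD, n = 3), a log2 fold change of 0.46 ± 0.20 with no overlap. Gpr182, an atypical receptor of sinusoidal endothelium, was at 33.5 ± 6.35 CPM in arm D and 19.7 ± 4.56 CPM in the model, a log2 fold change of 0.76 ± 0.37 with no overlap. For the model against normal the 2 with the smallest p were Gata4, a transcription factor that keeps endothelium sinusoidal in mouse, at −0.54 ± 0.25, and Gpr182 at −0.44 ± 0.37. In both, all model libraries lay below all normal ones.

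Pan-endothelial genes had a median of 0.43 for arm D against the model, with 16 of 20 positive. Mmrn2, an extracellular matrix protein of vessels, was at 9.39 ± 0.94 CPM in arm D and 5.39 ± 0.81 CPM in the model (SD, n = 3), a log2 fold change of 0.80 ± 0.24. Clec14a, an endothelial lectin that binds Mmrn2, was at 37.8 ± 1.99 CPM in arm D and 23.5 ± 4.39 CPM in the model, a log2 fold change of 0.68 ± 0.25. Both were without overlap, with adjusted p of 0.783 in edgeR. Mmrn2 also lay above the model in all arm G libraries, at 0.55 ± 0.24. Flt1, the VEGF receptor 1, had −0.86 ± 0.43 for the model against normal, with no overlap. For arm G against arm D the smallest p were those of Calcrl, the calcitonin receptor-like receptor, at −0.64 ± 0.23 and Clec14a at −0.59 ± 0.25, again without overlap.

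Endothelial transcription factors had a median of 0.30 for arm D against the model, with 9 of 12 positive. The 2 with the smallest p were the ETS factors Fli1, at 1.46 ± 0.57 with overlap, and Elk3, at 0.66 ± 0.27 without overlap. Klf4, named for its size after its value was seen, had a larger fold than Elk3, at 0.93 ± 0.41. Sox7 was at 0.17 ± 0.05 CPM in arm G and 0.88 ± 0.49 CPM in the model (SD, n = 3), a log2 fold change of −2.24 ± 0.81 from very few counts. Angiocrine and Notch genes had a median of 0.09, with Dll4, a Notch ligand, at 10.5 ± 1.13 CPM in arm D and 6.88 ± 0.85 CPM in the model, a log2 fold change of 0.61 ± 0.25 without overlap. Bmp6, which sinusoidal cells secrete to control hepatic iron, had 1.01 ± 0.68 with overlap.

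Large-vessel and lymphatic genes had a median of 0.59 for arm D against the model over 10 genes tested, 6 of them positive. Plvap, which forms the diaphragms of vessel pores, had 13.8, 45.0 and 51.0 CPM in arm D (D.1, D.4 and D.7), against 16.8, 8.28 and 7.65 CPM in the model (M.5, M.6 and M2.1). D.1 was at the model's level while D.4 and D.7 lay far above it, and the log2 fold change was 1.75 ± 0.53 (adjusted p of 0.783 in edgeR). Vcam1, an adhesion molecule for leukocytes, had 0.98 ± 0.33 against the model and 1.07 ± 0.33 against normal, without overlap against normal.

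Among the ligands, Vegfa, the VEGF made mainly by hepatocytes in liver, had 135, 304 and 115 CPM in arm G, 120, 86.1 and 112 CPM in arm D, 286, 338 and 131 CPM in the model and 128, 154 and 157 CPM in normal livers. G.3, M.5 and M.6 were the high libraries, and every arm D library lay below every model library. Its log2 fold change was −1.25 ± 0.41 for arm D against the model (unadjusted p = 0.0101, adjusted p = 0.783 in edgeR) and 0.78 ± 0.41 for the model against normal. Vegfb, a ligand of Flt1, had a log2 fold change of 0.52 ± 0.29 for arm D against the model. Vegfc, the ligand of Flt4, had −0.64 ± 0.30 for arm D against normal. Neither pair of groups overlapped.

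**Figure D4:**
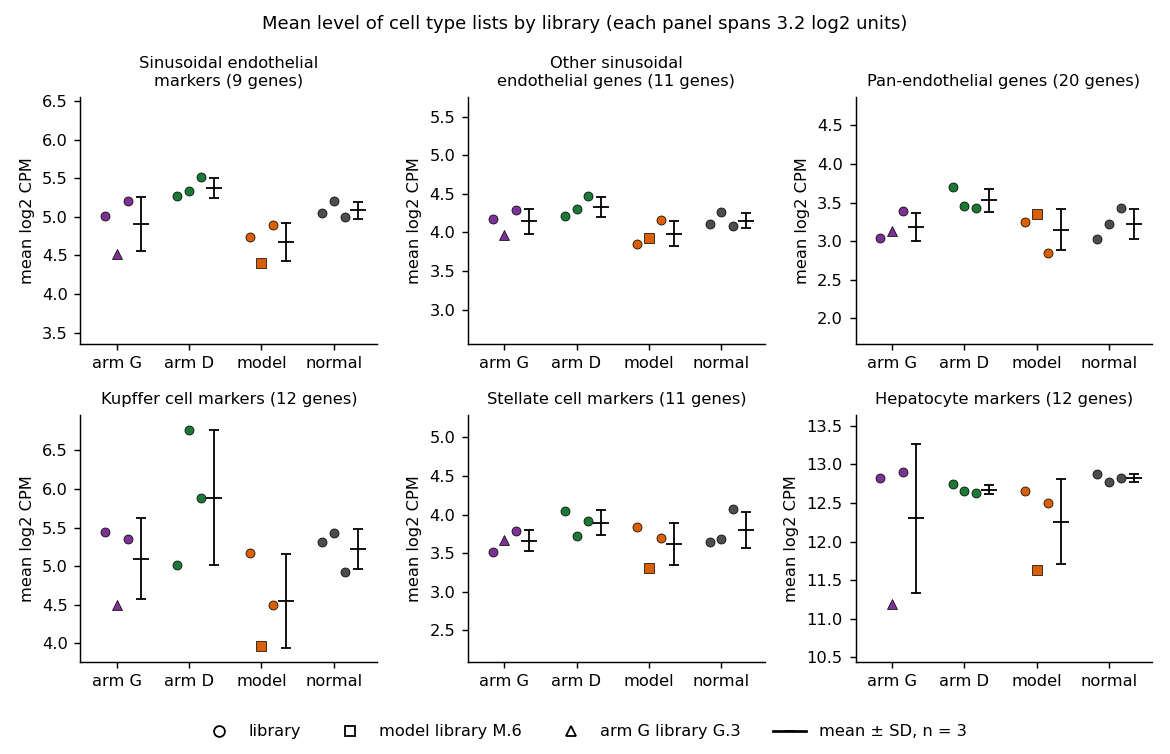
Mean log2 CPM of 6 gene lists in each library (vertical axes, each spanning the same number of log2 units), with the mean ± SD of 3 libraries per group. Hepatocyte markers stand apart in G.3 and M.6, at 11.2 and 11.6, and the Kupffer cell panel shows D.4 highest at 6.76. All 3 arm D libraries lie above the rest in the panel of the sinusoidal markers. They also do in the pan-endothelial panel, by a narrow gap (D.7 at 3.434, N.3 at 3.425). In the panel of other sinusoidal genes D.1 at 4.21 lies below N.2 at 4.27 and G.4 at 4.29.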

How the data were processed

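The deposited values are read counts, per the file headers, and were all whole numbers. The authors deposited 3 tables of 6 libraries. The log2 fold changes, p-values and adjusted p-values in the same tables are the authors' own and are used only where their deposited table is named. DESeq2 and the mouse build mm9 are named in the submitters' processing notes. No source used here gives the aligner, counting tool, annotation or use of strand, so antisense and overlapping genes could share reads, and the tables' genes have no coordinates here. Tables were joined on the gene name, with 0 where a table lacks a gene. Counts of the shared model libraries did not differ between tables. The 36 per-sample columns of other values were not used. A column's letter was matched to its group, with N for normal and M for model, but not to a single sample. The labels do not explain why M2.1 has a name of another form.

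The main test was that of edgeR 4.0.16 (R 4.3.3), with filterByExpr, TMM scaling and 1 quasi-likelihood fit of all 12 libraries with a mean per group. The Benjamini-Hochberg adjustment ran over 12355 genes, and the threshold was 0.05. The common biological coefficient of variation was 0.409. CPM values use TMM-scaled library sizes. Log2 CPM values, used in list means and correlations, add a prior count of 2. Alternatives were DESeq2 1.42.0, limma-voom (limma 3.58.1), other scaling, other filters, nuclear-coded genes alone, fits of 2 groups and libraries left out. The test was checked on simulated counts for the direction of planted folds. These folds were larger than any marker's, so the check does not cover folds of the markers' size. The markers and gene lists were chosen with earlier results of these data known. All markers are named. Of each other list, up to 2 genes per comparison with the smallest p could be named, and those shown were taken from these. Promoter sequences are RefSeq's for build GRCr8.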

Additional observations from a re-analysis of the deposited data

How the results depend on the processing

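The 54 fold changes of single markers (9 markers in 6 comparisons) were recomputed in 20 other ways, giving 1080 values. Of these 1027 kept direction and side of the threshold, 52 changed sign and 1 newly passed, Cdh5 in arm D against normal, so that limma-voom with sample quality weights called 1 marker there. In 38 of 54 no setting changed the sign, among them 8 of 9 markers for arm D against the model. Median fold changes of the markers moved by less than the spread between libraries (0.231 log2 units), apart from arm G against the model, which ran from 0.0525 to 0.54 on leaving out single libraries (lowest without G.4). Depth limits G.3 and M.6 most, with 4869054 and 7173229 counts outside the mitochondrial genome. No paired analysis was possible because the numbers in the column names do not follow the replicate numbers of the labels. The cause of the changes below was not tested.

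Over all genes edgeR called 0 in each comparison. For the model against normal DESeq2 called 41, limma-voom with weights 6, edgeR with no filter on low counts 3 and edgeR without both M.6 and G.3 1. DESeq2 called 14 for arm D against the model, 5 for arm G against the model, 84 for arm D against normal, 5 for arm G against arm D and 51 for arm G against normal. Limma-voom with weights called 941 for arm D against normal and 47 for arm G against normal. A fit of 2 groups called 2 for arm D against normal, and no filter gave 1 for arm G against arm D. Leaving out single libraries gave 0 to 6 for the model against normal (M.6 and G.3), 0 to 1 (N.3) where arm G was set against normal and 0 to 1 (G.4) where it was set against arm D.

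Without both M.6 and G.3, Stab1 turned to −0.21 (model against normal), −0.12 (arm G against model), −0.33 (arm G against normal) and, for arm G against arm D, −0.49. With voom weights it turned to −0.027, −0.25, −0.28 and −0.42 in the same order. Lyve1 in arm G against arm D turned to 0.068 without both and 0.064 with weights. In arm G against normal, Cdh5 turned to 0.056 and 0.049, Fcgr2b to 0.12 and 0.093, and Kdr to 0.0011 without both. Stab2 in arm D against normal turned to 0.0091 with limma-voom, 0.0051 with no filter, 0.0022 in the fit of 2 groups and 0.012 without both. Clec4g in arm G against arm D turned to −0.020 with limma-voom, −0.00096 with DESeq2, −0.0019 with its size factors, −0.023 with no filter and −0.0063 with nuclear-coded genes.

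Leaving out single libraries changed signs within these ranges. For the model against normal they were −0.25 to 0.074 for Clec4g, −0.035 to 0.17 for Lyve1 and −0.21 to 0.20 for Stab1. For arm D against the model Stab1 ran from −0.069 to 0.35. For arm G against the model the ranges were −0.16 to 0.26 for Cdh5, −0.54 to 0.58 for Oit3 and −0.39 to 0.78 for Stab1. Stab2 in arm D against normal ran from −0.26 to 0.27. For arm G against normal the ranges were −0.37 to 0.056 for Cdh5, −0.10 to 0.54 for Clec4g, −0.29 to 0.12 for Fcgr2b, −0.25 to 0.0011 for Kdr and −0.33 to 0.84 for Stab1. For arm G against arm D they were −0.35 to 0.26 for Clec4g, −0.20 to 0.068 for Lyve1 and −0.49 to 0.71 for Stab1.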

Other observations

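Which genes shared the library pattern of Stab1 was looked up after its values were seen. Over 12 libraries the 10 highest Pearson correlations ran from 0.916 to 0.962. Among them was Notch1, a receptor that endothelial cells use in vessel patterning, at 0.936, and 0.757 without M.6 and G.3. Notch1 had 38.6 CPM in G.3 and 28.8 CPM in M.6, against 15.2 to 22.7 CPM in the other 10 libraries. The others were RGD1307947, Orc5, Izumo4, Irak2, Idh3g, Tns2, Gltscr1, Il17rc and Pld2, and none of these 9 is on an endothelial list.

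Within the wider endothelial list the libraries M.6 and G.3 were the 2 highest for 11 of 63 genes and the 2 lowest for 7 of 63, which is 17.5% and 11.1%, against 16.5% and 13.9% of all genes tested. The 11 were F8, Icam2, Ushbp1, Sox17, Lyl1, Jag1, Notch1, Notch4, Vwf, Selp and Ccl21. The 7 were Gpr182, Flt4, Cd36, Clec14a, S1pr1, Calcrl and Cd34. Of the 9 sinusoidal markers, 5 had M.6 and G.3 as the 2 lowest and Stab1 had them as the 2 highest.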
